A study of Mus musculus with 6 samples.

Results

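The genes described here are 8 genes of the red cell lineage, Alas2, Slc4a1, Hemgn, Epb42, Ahsp, Klf1, Gata1 and Rhd, read as a measure of blood in whole eyeballs of newborn mice. A gene was measured where the array annotation gave a probe set, the group of short probes read as 1 value, to that gene alone. Where it gave several, the brightest on average over the arrays was used. This held for 7 of the 8 genes, out of 12393 genes measured in all, and Ahsp was not analysed here. The study compared 3 Brg1 cKO with 3 wild-type eyeballs at postnatal day 1, with 1 array per eyeball, on a mixed strain background. Smarca4 encodes Brg1, the motor subunit of SWI/SNF chromatin remodeling complexes. The mutants carried 2 floxed Brg1 alleles and the Le-Cre transgene, which is driven by a Pax6 enhancer in the surface ectoderm that forms lens, cornea and eyelid. By the study's methods the controls were littermates. The labels call them wild type, and elsewhere the study names floxed mice without Cre as its controls. No Le-Cre control was among the 6 arrays, and deletion was often incomplete.

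Red cells take up iron, build heme and fill with hemoglobin while they mature, and they lose their nucleus before they circulate. The young red cells of a newborn, the reticulocytes, still hold messenger RNA, so that blood left in a dissected organ adds transcripts of this lineage to its RNA. Gata1 and Klf1 are the transcription factors that switch on the red cell program. Their targets include the heme enzyme gene Alas2 and the genes of membrane proteins such as the anion exchanger band 3.

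Values are log2 of the deposited array intensity, and a difference of 1 is a 2-fold change. The 25th percentile of all values, 4.84, is used here as the low end of the scale. The means of only 2 of the 7 genes, Alas2 and Slc4a1, lay above it. Rhd lay just below it at 4.81, and Hemgn, Epb42, Klf1 and Gata1 lay further below, where probe signal is close to background. The name of a blood marker therefore rests on Alas2 and Slc4a1 in these arrays, beside the globins described later. Fewer red cells and less RNA per red cell cannot be told apart in whole eyeballs.

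The Brg1 probe set with the highest mean, which reports Smarca4, read 10.11, 9.82 and 9.81 in wild-type eyeballs, against 10.35, 9.93 and 9.98 in Brg1 cKO. The sources used here do not say whether it lies in the deleted part, so it does not check the labels. Of the 13 measured genes of an eye tissue list, 1 passed the test, the corneal keratin gene Krt12, which fell by 3.71 (limma adjusted p = 0.00194), and the lens genes Mip and Bfsp1 differed by -2.51 and -4.48 without passing (adjusted p = 0.0618 and 0.106). Xist read between 12.30 and 12.92 in 5 arrays and 4.88 in Brg1 cKO replicate 1, the only male. Brg1 cKO replicate 2 held the highest value of 21.7% of the 22626 probe sets, the only array for which this share is given. The genotype differences and levels of the erythroid genes are given without it below where leaving it out turns their sign or moves them by over 1.5 times.

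Promoter sequences are shown for Alas2, on which the blood measure mainly rests, and for Hemgn, whose values did not overlap between genotypes. Each run is the 100 bases before the start of the gene, 5′ to 3′ on the strand of the gene, from RefSeq on GRCm38.p6. Capitals mark 2 kinds of motif found on either strand, a GATA motif (TGATAA or TGATAG, or either with A as its first base) and a CACC-type motif of the kind that Klf1 binds (CCNCNCCC), and overlapping matches run together.
Alas2, chrX:150547317-150547416, plus strand: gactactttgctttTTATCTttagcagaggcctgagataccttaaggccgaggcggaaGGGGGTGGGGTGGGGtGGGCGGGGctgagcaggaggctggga
Hemgn, chr4:46404184-46404283, minus strand: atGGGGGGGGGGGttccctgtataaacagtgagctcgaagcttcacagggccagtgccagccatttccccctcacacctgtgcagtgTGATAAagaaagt
A GATA motif lay 86 bases before the start in Alas2 and 13 bases before it in Hemgn. Klf1 and Rhd held one 80 and 43 bases before the start. The motif was thus present in 4 of the 6 genes with a promoter entry, where 10.4% of 32851 promoters held one. A CACC-type motif was present in 3 of the 6, Alas2, Hemgn and Gata1, where 31.4% of all promoters held one, and in Hemgn its 4 overlapping matches lie in 1 run of G. A match describes the letters and does not show that a factor binds there.

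None of the 7 genes passed an adjusted p of 0.05 in limma, where 0.508% of all probe sets did (115 of 22626). At an unadjusted p under 0.05 the number was 1, Hemgn, where 8.4% of all probe sets lay under it. Template matching, a correlation with the genotype modelled on the selection the study describes, also called Hemgn alone and called 3.62% of all probe sets. Its settings here need not be those of the study, so that its counts are not the study's. Differences, Brg1 cKO minus wild type, were negative for 5 genes and positive for 2, with a median of -0.10 beside -0.01 over all probe sets. For every measured gene except Hemgn, the difference was smaller than the SD among Brg1 cKO eyeballs.

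Alas2 encodes the red cell form of 5-aminolevulinate synthase, the enzyme that starts heme synthesis. It read 7.22, 7.40 and 8.33 in wild-type eyeballs (replicates 1, 2 and 3), against 6.66, 8.84 and 7.15 in Brg1 cKO eyeballs. Brg1 cKO eyeballs held both the highest and the lowest value, and wild-type replicate 3 came second, so that the groups overlapped fully. The means were 7.65 ± 0.59 and 7.55 ± 1.14 (SD, n = 3), a difference of -0.10 (SE 0.57, limma adjusted p = 0.978). The 95% interval, -1.44 to 1.24, reached from 2.71-fold lower to 2.37-fold higher in Brg1 cKO. Over the 6 arrays Alas2 spanned 4.53-fold, 2.18 log2 units, a wider range than that of 94.7% of the probe sets above the low end, whose median range was 0.83. Its difference was -0.74 without Brg1 cKO replicate 2 (adjusted p = 0.714), 0.35 without Brg1 cKO replicate 1, 0.24 without wild-type replicate 3 and 0.10 without Brg1 cKO replicate 3.

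**Figure D1:**
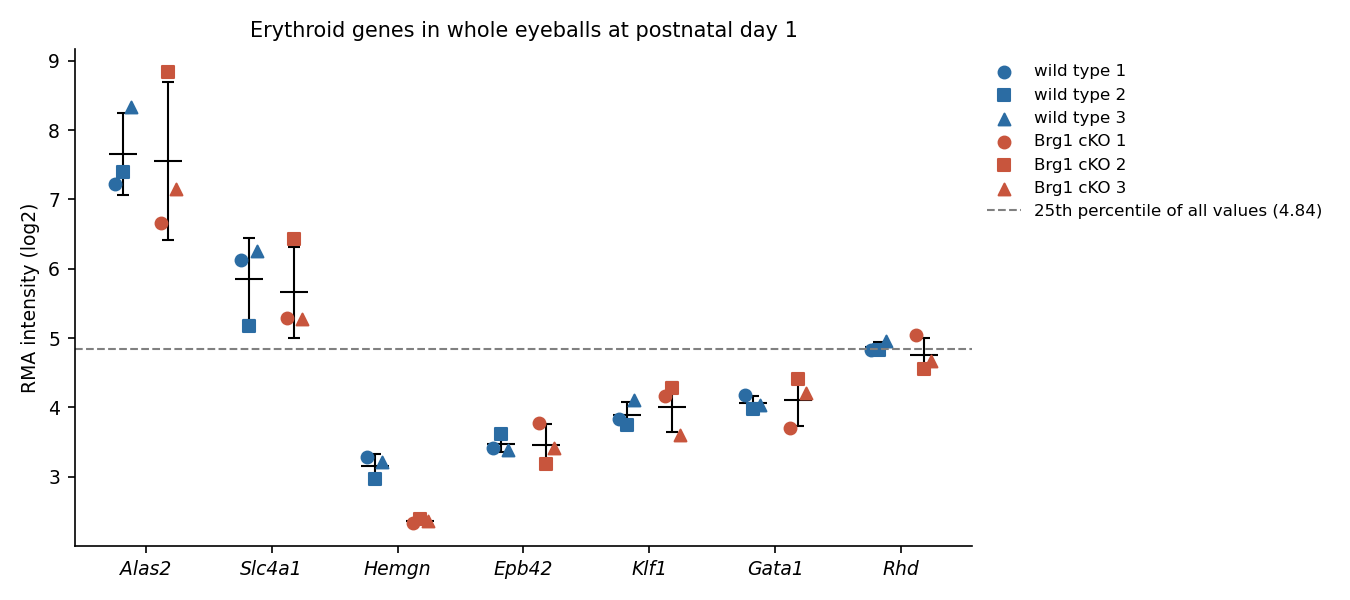
Log2 RMA intensity (vertical axis) of the 7 measured erythroid genes (horizontal axis), with 1 point per array, 3 wild type in blue and 3 Brg1 cKO in red, the mean as a long bar, the SD as an error bar, and the 25th percentile of all values, 4.84, as a dashed line. Alas2 and Slc4a1 lie above the line with overlapping genotypes, and for Hemgn, between 2.33 and 3.28, all Brg1 cKO points lie below all wild-type points.

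Slc4a1 encodes band 3, the chloride and bicarbonate exchanger that also anchors the red cell skeleton. It read 6.12, 5.17 and 6.26 in wild-type eyeballs, against 5.29, 6.43 and 5.27 in Brg1 cKO. As for Alas2, Brg1 cKO replicate 2 was highest and wild-type replicate 3 second. This pair led in the same order in 4.88% of all probe sets. The lowest array in this probe set was wild-type replicate 2, where Alas2 had not been low. The means were 5.85 ± 0.59 and 5.66 ± 0.66 (SD, n = 3), with a difference of -0.19 (SE 0.41, adjusted p = 0.940) and an interval of -1.15 to 0.77. Without Brg1 cKO replicate 2 the difference was -0.57, and without Brg1 cKO replicate 1 it was 0.00. Another Slc4a1 probe set read 6.06, 5.38 and 6.20 against 4.85, 6.48 and 5.44, a difference of -0.29. Its lowest array was Brg1 cKO replicate 1, as for Alas2, so that these 2 Slc4a1 probe sets disagreed on the lowest array. The third read 3.03 to 3.98, below the low end, with a difference of 0.38 (adjusted p = 0.729).

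Epb42 and Rhd, the other membrane genes among the 7 measured, overlapped between genotypes. Epb42 encodes protein 4.2, which ties band 3 to the skeleton, and it read 3.42, 3.61 and 3.39 in wild-type eyeballs, against 3.78, 3.18 and 3.42 in Brg1 cKO. Its difference was -0.01 (SE 0.20, adjusted p = 0.993), and 0.12 without Brg1 cKO replicate 2, which was the highest array for band 3 and the lowest here. The other Epb42 probe set read 2.50, 2.20 and 2.52 against 2.40, 3.06 and 2.58. In it Brg1 cKO replicate 2 was the highest array and wild-type replicate 2 the lowest, as in the Slc4a1 probe set used. Rhd, the Rh blood group antigen, read 4.83, 4.82 and 4.95 against 5.04, 4.55 and 4.67. Its difference was -0.12 (SE 0.19, adjusted p = 0.916), with Brg1 cKO replicate 2 lowest, and -0.02 without that array. All these probe sets had means below the low end, and the 2 of Epb42 disagreed on the order of the arrays.

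The regulator genes were close to background. Klf1 read 3.83, 3.74 and 4.10 in wild-type eyeballs, against 4.17, 4.28 and 3.60 in Brg1 cKO, a difference of 0.13 (SE 0.23, adjusted p = 0.924) that was -0.01 without Brg1 cKO replicate 2. Gata1, which mast cells and megakaryocytes also express, read 4.18, 3.97 and 4.03 against 3.70, 4.41 and 4.20. Its difference was 0.04 (SE 0.22, adjusted p = 0.977), and -0.11 without Brg1 cKO replicate 2, with Brg1 cKO arrays at both ends.

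Hemgn encodes hemogen, a nuclear protein of blood-forming cells. It read 3.28, 2.96 and 3.21 in wild-type eyeballs, against 2.33, 2.39 and 2.36 in Brg1 cKO. All 3 Brg1 cKO values were lower than every wild-type value, which also held for 6.44% of the probe sets tested. The difference was -0.78 (SE 0.17, interval -1.18 to -0.39), which missed the threshold in limma (adjusted p = 0.160). A two-sided exact permutation test gave p = 0.1, the smallest value that 3 arrays against 3 allow. All 6 values lay at least 1 log2 unit below the low end of the scale, and no fold is given for RNA that may not have been detected.

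**Figure D2:**
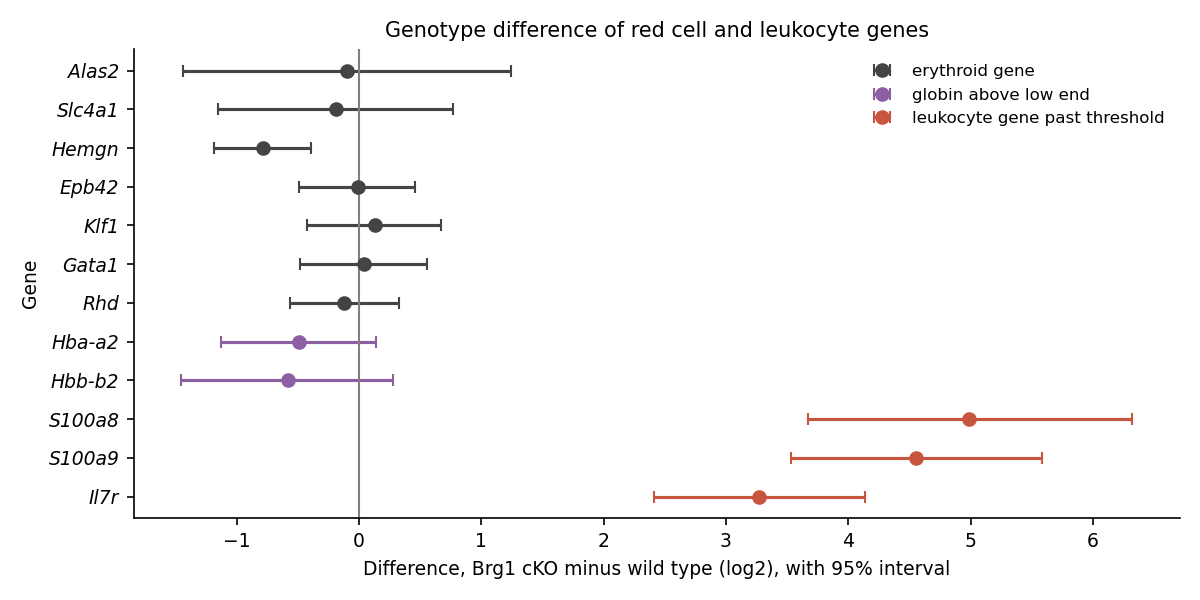
Log2 difference between Brg1 cKO and wild type (horizontal axis, 3 arrays each) with its 95% interval from limma for the 7 erythroid genes, the 2 globins above the low end and the 3 leukocyte list genes that passed adjusted p 0.05 (vertical axis). Intervals of 6 erythroid genes and both globins span 0, and those of S100a8, S100a9 and Il7r lie between 2.41 and 6.32.

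Globins are the protein chains of hemoglobin. Of 11 globin genes 6 had a probe set of their own and 2 lay above the low end. Mouse adult globin genes come in near-identical copies, so that the 2 probe sets above the low end may read copies together. The 4 probe sets listing several globin genes were not used. Hba-a2, an adult alpha chain, read 11.24, 11.44 and 11.52 in wild-type eyeballs, against 10.59, 10.65 and 11.48 in Brg1 cKO, a difference of -0.49 (SE 0.27, adjusted p = 0.714). Hbb-b2, an adult beta chain, read 11.70, 11.72 and 11.93 against 10.49, 12.03 and 11.09, a difference of -0.58 (SE 0.37, adjusted p = 0.760). Both were lowest in Brg1 cKO replicate 1. Both overlapped between genotypes, each through a single Brg1 cKO array, replicate 3 for Hba-a2 and replicate 2 for Hbb-b2. The other 4, Hba-a1, Hba-x, Hbb-y and Hbb-bh1, lay below the low end. Hba-a1 read 3.19 to 3.61, so that its probe set did not report the signal seen for Hba-a2. No globin passed the limma test and none had an unadjusted p under 0.05, and the median difference was -0.27.

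As a level per array, each gene was set to its wild-type mean and averaged. The 7 genes together gave -0.01, -0.18 and 0.19 in wild-type eyeballs, against -0.28, 0.16 and -0.32 in Brg1 cKO. Their mean in Brg1 cKO was -0.15, and -0.30 without Brg1 cKO replicate 2. The mean of Alas2 and Slc4a1 alone, the genes above the low end, gave -0.08, -0.46 and 0.55 against -0.77, 0.89 and -0.54. Its mean in Brg1 cKO was -0.14 and its SD was 0.51 within wild type and 0.90 within Brg1 cKO. The mean depended on single Brg1 cKO arrays, and without replicate 2 it was -0.66, from the 2 arrays left. Without Brg1 cKO replicate 1 the differences of Alas2 and Slc4a1 were 0.35 and 0.00. Without Brg1 cKO replicate 3 they were 0.10 and 0.01. Brg1 cKO replicates 2 and 1 differed by 1.66, or 3.16-fold, which is the widest gap between any arrays in this measure. The globin level was -0.12, -0.01 and 0.13 in wild-type eyeballs, against -1.05, -0.25 and -0.31 in Brg1 cKO. Its mean in Brg1 cKO was -0.54, and -0.68 without Brg1 cKO replicate 2. All 3 Brg1 cKO globin levels lay below every wild-type level, although neither globin showed this order alone. Of single probe sets 6.44% showed it, and the share among means of 2 genes was not computed. The genotype difference of the globin level was not tested. The globins and the mean of Alas2 and Slc4a1 were both lowest in Brg1 cKO replicate 1, whereas the mean of the 7 genes was lowest in Brg1 cKO replicate 3. They also differed on the highest array, since Brg1 cKO replicate 2 lay below all wild-type arrays by globins and above them by Alas2 and Slc4a1. In that array the globins split, with Hbb-b2 at its highest value and Hba-a2 below every wild-type value. The 3' to 5' signal difference of the actin control probes was 1.12, 1.01 and 0.93 in wild-type eyeballs, against 1.28, 1.34 and 0.98 in Brg1 cKO, widest in Brg1 cKO replicates 2 and 1. That of the Gapdh control probes was 0.79, 0.87 and 0.75 against 0.73, 1.05 and 0.73, also widest in Brg1 cKO replicate 2 but among the narrowest in replicate 1. Their part in these levels was not tested.

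**Figure D3:**
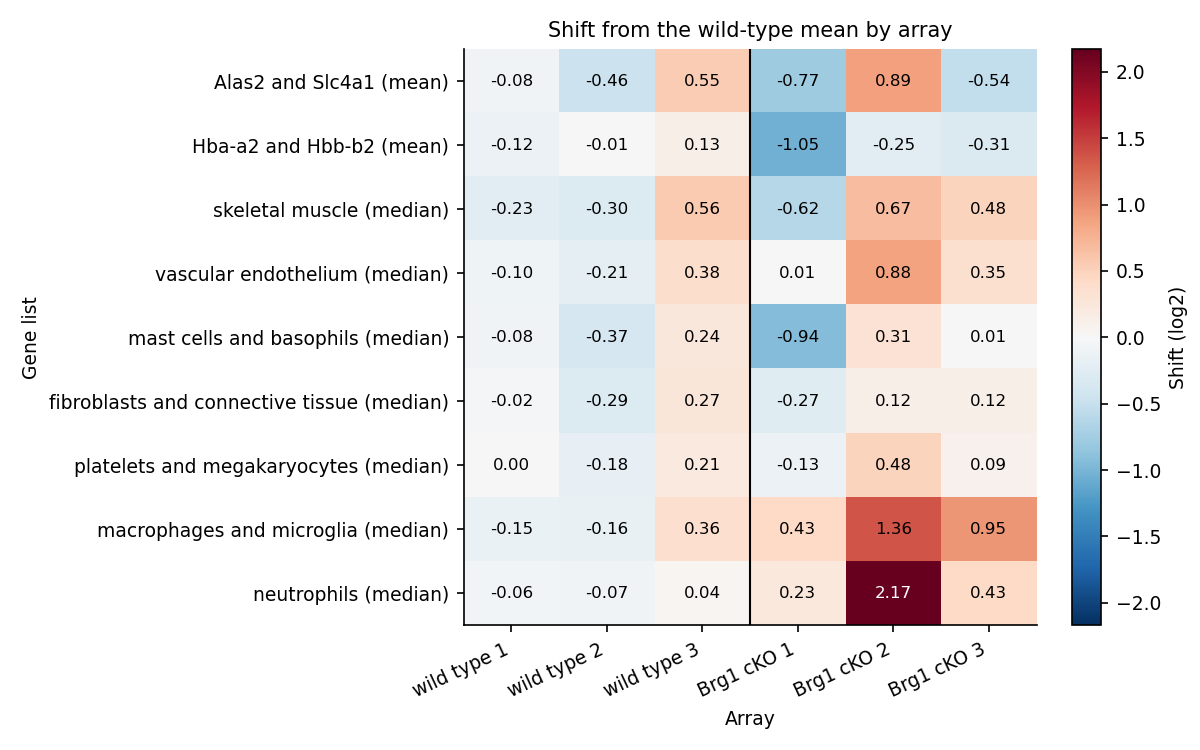
Shift of each array (horizontal axis) from the wild-type mean in log2 units (colour and printed value) for red cell genes and for lists of other cell types (vertical axis), as the mean of the genes named or the median of a list. Brg1 cKO replicate 2 is the highest array for Alas2 and Slc4a1 (0.89), muscle (0.67), endothelium (0.88) and neutrophils (2.17), and Brg1 cKO replicate 1 the lowest for both red cell measures, muscle and mast cells.

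Wider lists of red cell genes held no gene past the limma threshold. Heme synthesis had 11 of 12 genes measured, all above the low end, with a median difference of 0.10. Most of these enzymes work in every cell, and Fech, which inserts iron into the ring, differed by 0.01. The heme pathway gene with the smallest p was Abcb6, a porphyrin transporter, at 0.44 (adjusted p = 0.740), followed by Alas1, the form of the synthase used outside red cells, at 0.28. No gene of this list had an unadjusted p under 0.05.

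Iron supply had 8 of 9 genes measured, with a median of 0.11. Tfrc, the transferrin receptor, read 11.10, 11.15 and 10.81 in wild-type eyeballs, against 11.59, 11.26 and 11.56 in Brg1 cKO, groups that did not overlap, as for 7.31% of probe sets with Brg1 cKO higher and 13.7% in either direction, with a difference of 0.45 (SE 0.19, adjusted p = 0.586). Steap3, an iron reductase, differed by 0.84 (adjusted p = 0.463). These were the 2 of 8 genes at an unadjusted p under 0.05, where 8.4% of all probe sets lay. Dividing cells of any tissue also use the transferrin receptor.

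The red cell membrane list had 11 of 14 genes measured, 7 above the low end, with a median of -0.07. Sptb, the red cell beta spectrin, differed by -0.48 (adjusted p = 0.664), Add2, beta adducin, by -0.65 (adjusted p = 0.720) and Ank1, the ankyrin that binds band 3, by 0.03. Rhag, the partner of the Rh antigen, read 2.22 to 3.24. Xk, which carries a blood group antigen, was the 1 gene at an unadjusted p under 0.05, at 0.57 and below the low end. The genotypes did not overlap for 3 of the 11, as for 13.7% of all probe sets in either direction. These were Sptb and Kel, lower in Brg1 cKO, and Xk, higher in Brg1 cKO.

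All 12 erythroid transcription factors were measured, with a median of 0.20, and 2 had an unadjusted p under 0.05, beside 8.4% of all probe sets. Nfe2, a globin gene activator also made in megakaryocytes and myeloid cells, read 3.85, 4.18 and 4.52 in wild-type eyeballs, against 5.09, 5.71 and 4.91 in Brg1 cKO. Its mean of 4.71 lay below the low end, and the groups did not overlap, which also held for 7.31% of all probe sets with Brg1 cKO higher. The difference was 1.06 (SE 0.27, adjusted p = 0.263). Lyl1, expressed in blood progenitors and endothelium, had a mean of 5.53, above the low end, and its groups did not overlap either, with Brg1 cKO higher. It differed by 1.42 (SE 0.48, adjusted p = 0.464), and Tal1, the related factor of red cells and endothelium, by 0.65 (adjusted p = 0.772). All 3 were highest in Brg1 cKO replicate 2, as were 21.7% of all probe sets. Gfi1b, a repressor of red cells and megakaryocytes, read 2.86 to 3.49.

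Of the Epo receptor and late red cell genes 12 of 15 were measured, with a median of -0.11 and no unadjusted p under 0.05. Epor itself read 3.53 to 4.22. Car2, a carbonic anhydrase of red cells and of eye epithelia, differed by -0.45 (adjusted p = 0.660), and Car1, the red cell form, by -0.29 below the low end. Prdx2, a peroxiredoxin abundant in red cells, differed by -0.17 and Bpgm, which makes 2,3-bisphosphoglycerate, by -0.03.

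Among the lists of other blood cells, 3 genes passed the test. Of 14 measured neutrophil genes 2 passed, S100a8 and S100a9, the calprotectin subunits, and of 12 lymphocyte genes 1 passed, the interleukin 7 receptor gene Il7r. Which cells of the eyeball expressed these 3 genes was not tested. The neutrophil list had a median of 0.89, with 11 differences positive and 3 negative, and 7 of its genes lay below the low end. The negative differences were those of Ltf (-0.51), and of Mpo (-0.09) and Elane (-0.07), both below the low end. S100a8 rose by 4.99 (SE 0.56, adjusted p = 0.0181), from 7.19, 5.81 and 6.62 to 10.92, 12.76 and 10.92. Il7r rose by 3.27 (adjusted p = 0.0181), and the lymphocyte list had a median of 0.08. None of 16 macrophage and microglia genes passed in limma. All 16 differences were positive, 9 had an unadjusted p under 0.05 (8.4% of all probe sets), 7 met template matching (3.62%), and the median was 0.87. Ptprc, the leukocyte antigen CD45, read 4.55, 4.23 and 5.16 against 6.16, 7.88 and 7.16 (difference 2.42, adjusted p = 0.0990).

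Of 10 platelet genes measured, none passed in limma, 1 had an unadjusted p under 0.05 and the median was 0.18. That gene was Ppbp, a platelet chemokine precursor, with a difference of 2.06 (adjusted p = 0.288), while the platelet gene Pf4 read 10.13, 9.81 and 9.89 against 9.11, 10.39 and 10.02 (difference -0.11). The median shift of the platelet list was 0.00, -0.18 and 0.21 in wild type, then -0.13, 0.48 and 0.09 in Brg1 cKO. Its highest, second and lowest arrays were those of the Slc4a1 probe set used. Mast cell genes, 11 of 11 measured, had a median of -0.20, and none passed in limma. Their median shift was -0.08, -0.37 and 0.24, then -0.94, 0.31 and 0.01, with the same highest, second and lowest arrays as Alas2. Of them, 7 were lowest in Brg1 cKO replicate 1, where 15.0% of all probe sets had their lowest value. Among these, the mast cell protease gene Tpsb2 read 9.13, 8.21 and 8.95 against 5.98, 8.60 and 8.10. Hdc, which makes histamine and is also expressed by other myeloid cells, was instead highest in Brg1 cKO replicate 2, at 11.08, and was the 1 gene of this list at an unadjusted p under 0.05.

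Vessel and muscle genes, like the platelet and mast cell lists, had their 2 highest median shifts in Brg1 cKO replicate 2 and wild-type replicate 3, as did Alas2. Of 15 endothelial genes 13 were highest in Brg1 cKO replicate 2, as were 21.7% of all probe sets. The list had a median difference of 0.48, with 13 differences positive and 2 negative. Its median shift was -0.10, -0.21 and 0.38 in wild-type eyeballs, against 0.01, 0.88 and 0.35 in Brg1 cKO. Pecam1, an adhesion molecule of endothelium, read 6.08, 5.78 and 6.85 against 5.72, 7.69 and 7.00. None of the 15 passed in limma or had an unadjusted p under 0.05. A list of 13 skeletal muscle genes, chosen after values were seen, had shifts of -0.23, -0.30 and 0.56 against -0.62, 0.67 and 0.48. Of these genes, 10 were highest in Brg1 cKO replicate 2 (21.7% of all probe sets) and 12 lowest in Brg1 cKO replicate 1 (15.0%). A list of 8 connective tissue genes, also chosen afterwards, shifted by -0.02, -0.29 and 0.27 against -0.27, 0.12 and 0.12. The part of these other cell types in the levels of Alas2 and Slc4a1 was not tested.

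Genes with profiles like those of the erythroid genes were ranked by the root mean square distance of their centred log2 values over the 6 arrays, among 3405 genes above the low end with a range of at least 1. The 10 closest to the mean profile of the 7 genes were Capn5, Myadm, Hpgd, Adgrd1, Smagp, Tom1, Gpc4, Zfp944, Gemin7 and Idua, at distances of 0.189 to 0.211. That profile averages 5 genes near background and is shallow, from -0.25 to 0.26. The profile of Alas2 alone was ranked after values were seen, and Phkg1, a phosphorylase kinase subunit of muscle, came first at 0.148, before Aoc3 (0.152), Arsi (0.179) and F13a1 (0.257). Hbb-b2 ranked 164 (0.431) and was thus not among the 10 nearest neighbours of Alas2. Slc4a1, as an erythroid gene, and Hba-a2, with a range of 0.93, were not among the ranked genes. Their distances, 0.464 and 0.856, would place them at 256 and 1618. The distance counts the size of the range as well as the order of the arrays. These 3 genes spanned less than Alas2, so their ranks do not compare the order alone.

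**Figure D4:**
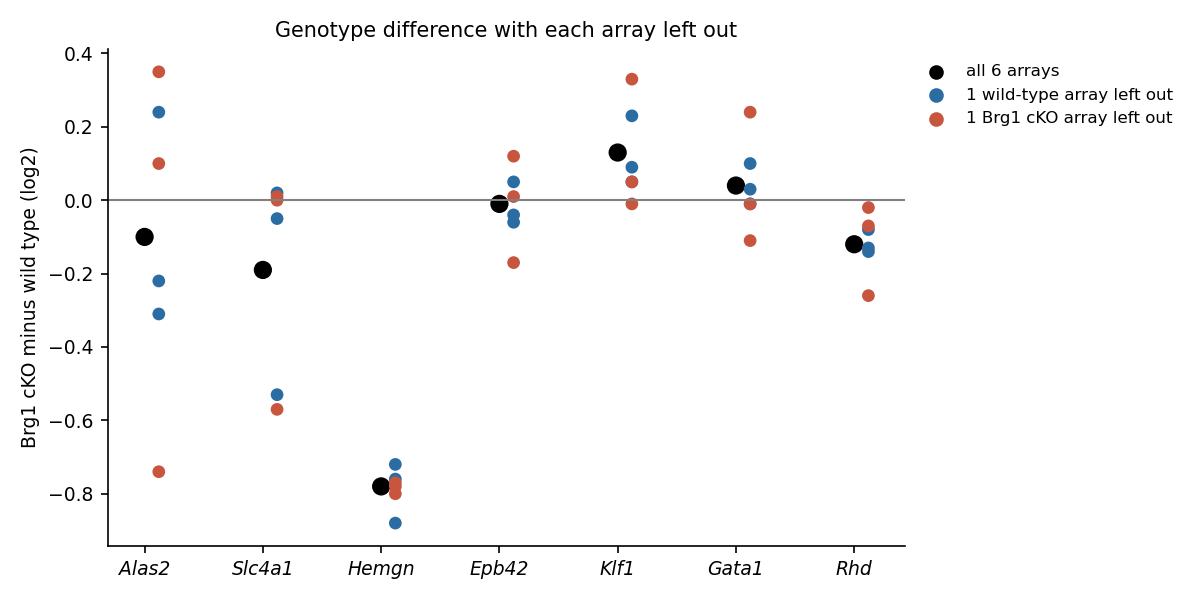
Log2 difference between Brg1 cKO and wild type (vertical axis) of the 7 erythroid genes (horizontal axis) over all 6 arrays in black and with 1 array left out in colour. Alas2 moves from -0.74 to 0.35 with the array left out, Slc4a1 from -0.57 to 0.02 and Hemgn from -0.88 to -0.72.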

How the data were processed

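RNA of individual eyeballs was extracted, and per the labels 50 ng of total RNA was amplified with the NuGEN Ovation system, labelled with biotin and hybridised to Affymetrix mouse arrays. The authors made the values with RMA, which corrects background, equalises arrays and summarises probes. The sources used here give no version of it. Linear intensities were deposited and were taken to log2 here. RMA compresses low signals, and amplification from little RNA adds noise.

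Of 22690 rows 64 array controls were left out. The platform annotation gave 1 gene to 20380 probe sets, several to 691 and none to 1555. Genotypes were compared with limma 3.58.1 in R 4.3.3 (lmFit and eBayes, two-sided, Benjamini-Hochberg over 22626 probe sets, threshold 0.05), checked on simulated data. Tables were made with pandas 2.3.3 in Python 3.11.15. With 3 arrays per genotype, their number limits the precision. The genes named are the 8 erythroid genes, up to 4 genes of each list with the smallest p, and the 10 nearest profiles. Others were named for their role after values were seen. The erythroid genes and all lists were chosen with earlier results of these data known. Template matching is a correlation with the genotype at p under 0.05 with a fold over 1.5. Alternatives were the replicate number as a block, leaving out arrays, filters, scaling, moderation, array weights, call rules, a floor and other probe sets.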

Additional observations from a re-analysis of the deposited data

How the results depend on the processing

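None of the 7 erythroid genes passed the adjusted threshold in any limma alternative run, with adjusted p from 0.053 to 0.560 for Hemgn. The number was 1, Hemgn, at an unadjusted p under 0.05 with a fold over 1.5 (1467 probe sets) and under template matching (820 probe sets). The 115 probe sets called became 190 with array weights, 54 of the 19728 probe sets left with intensities floored at 16, where Hemgn and Epb42 had no value, and 374 with the level of Alas2 and Slc4a1 as a covariate, an alternative chosen after seeing the data. With an array left out they ranged from 24 (without wild-type replicate 1) to 216 (without Brg1 cKO replicate 2), with 26 and 36 when wild-type replicate 2 or 3 was omitted and 53 without Brg1 cKO replicate 3. The labels link same-numbered arrays by number only, and do not say whether they shared a litter or a batch. Correlations of their deviations were 0.0597, 0.0820 and 0.125, and with the replicate block 45 probe sets passed. The median difference of the erythroid genes stayed between -0.14 and 0.02. Only Hemgn and Rhd kept their sign in every alternative run. With arrays left out Alas2 ranged from -0.74 to 0.35, Slc4a1 from -0.57 to 0.02, Epb42 from -0.17 to 0.12, Klf1 from -0.01 to 0.33 and Gata1 from -0.11 to 0.24. The sign also turned for Slc4a1 with its dim probe set (0.38), for Epb42 with quantile normalization (0.03), array weights (0.03) and its other probe set (0.27), and for Gata1 with arrays centred on their medians (0.00). The cause was not tested. Signals of 5 of the 7 genes near background limit what these arrays show of them.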
